A study of Drosophila melanogaster with 32 samples.

Results

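Naive flies of the strains w+hsp70- and hsp70- were compared by RNA sequencing of male heads. The members were the naive libraries that the sample titles give to these strains, 3 of w+hsp70- and 3 of hsp70-, which are 6 of the 32 libraries in the series, and every gene row of their count tables was used. Both strain names carry hsp70-, and w+ is what the name of one strain has and that of the other lacks. The labels give no further allele, no genetic background, no age and no hour of collection, so other differences between the strains cannot be told apart from w+. Per the labels' protocols a replicate was a pool of about 100 flies. Naive libraries of the strains hsp70-1c and hsp70-4c, 4 of each, served as further strains, and 3 libraries of each compared strain from trained flies, collected at 5 h, gave a second set of samples; the labels do not describe the training. The series title places the study in work on Hsp70, memory and gene expression.

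The white gene, w, encodes a half-transporter of the ATP-binding cassette family. It pairs with the products of scarlet (st) and brown (bw) to carry precursors of the brown ommochrome and red pteridine pigments into the pigment granules of the eye. Flies without w function have white eyes, and w is also expressed outside the eye, where it has been tied to amine levels and to behaviour, memory and courtship included. The inducible Hsp70 genes encode the main heat-induced chaperone of the fly, which is nearly silent in unstressed flies.

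Between 5540847 and 6804979 reads were assigned to genes in a w+hsp70- library and between 4542145 and 5172194 in an hsp70- library. All markers of neurons, glia and photoreceptors found in the tables had reads. Most of 30 gut markers had reads too, with sums of 8378.7 to 21878.0 CPM (counts per 1000000 reads). The presence of reads therefore could not test the head label. Among these 6 libraries, hsp70- replicate 1 stood apart. The summed level of its 6 neuron markers was 716 counts per 1000000 reads (CPM), against 1214 and 1298 in the other hsp70- libraries and 931 to 1262 in w+hsp70-, with no marker at 0. Genes of the mitochondrial genome summed to 231163 CPM in it, against 177197 to 213929 in the other 5 libraries, and 61.9% of its reads fell on no gene, against 64.3% to 65.8%. No naive library of hsp70-1c or hsp70-4c had so low a neuron marker sum, with lowest values of 1095.8 and 976.3 CPM. For the mitochondrial sum and the share on no gene, other libraries of the series reached such values. Mitochondrial sums went up to 234248.6 CPM in naive hsp70-4c, and the share on no gene ran from 58.1% to 68.7% over all 32 libraries. Calls are also given without hsp70- replicate 1. In bulk RNA, fewer cells of a type and less RNA per cell cannot be told apart.

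The inducible Hsp70 genes were at or near 0 in both strains. Of the 6 genes, 5 had 0 reads in all 6 libraries, and Hsp70Aa had 1 read, in w+hsp70- replicate 2. The sum of the 6 genes was 0.06 ± 0.104 CPM (SD, n = 3) in w+hsp70- and 0 in hsp70-, where a count of 0 allows up to 0.206 CPM over the group. The difference was 0.08 on the log2(CPM + 1) scale, and with 1 read in all 6 libraries no test between the strains could be made. By the same measure, naive hsp70-1c libraries had sums of 0 to 0.442 CPM and naive hsp70-4c libraries 4.31 to 6.12 CPM. Nearly all of the latter came from Hsp70Bc, at 5.17 ± 0.755 CPM (SD, n = 4). The copies are nearly identical, so that reads shared between them may have gone uncounted.

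Few genes differed between the strains. Of 10462 genes tested with edgeR's quasi-likelihood test, 30 passed at an adjusted p under 0.05, which is 0.287%, with 22 higher (0.21%) and 8 lower (0.0765%) in w+hsp70-. At an unadjusted p under 0.05 there were 742 (7.09%). The median log2 difference over all tested genes was 0, and the median size of the difference was 0.12, against 1.01 among the 30. In each of the 30, all 3 libraries of one strain lay above all 3 of the other, as they did in 1127 of the 10462 tested genes (10.8%). The sizes and the lack of overlap come from the libraries that made the calls and add no support to them. By kind, 22 of the 30 were protein-coding, 4 were long non-coding RNAs, 3 were antisense RNAs and 1 was a pseudogene. Shares of these kinds over all tested genes are not given here, so the counts show no excess of any kind. Without hsp70- replicate 1 the count was 52, and 24 of the 30 were among them. Leaving out any other single library lowered the count: to 14, 19 and 24 for w+hsp70- replicates 1, 2 and 3, and to 13 and 12 for hsp70- replicates 2 and 3. With the 6 libraries alone, without the other strains to estimate the spread, 7 genes passed, all among the 30.

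**Figure D1:**
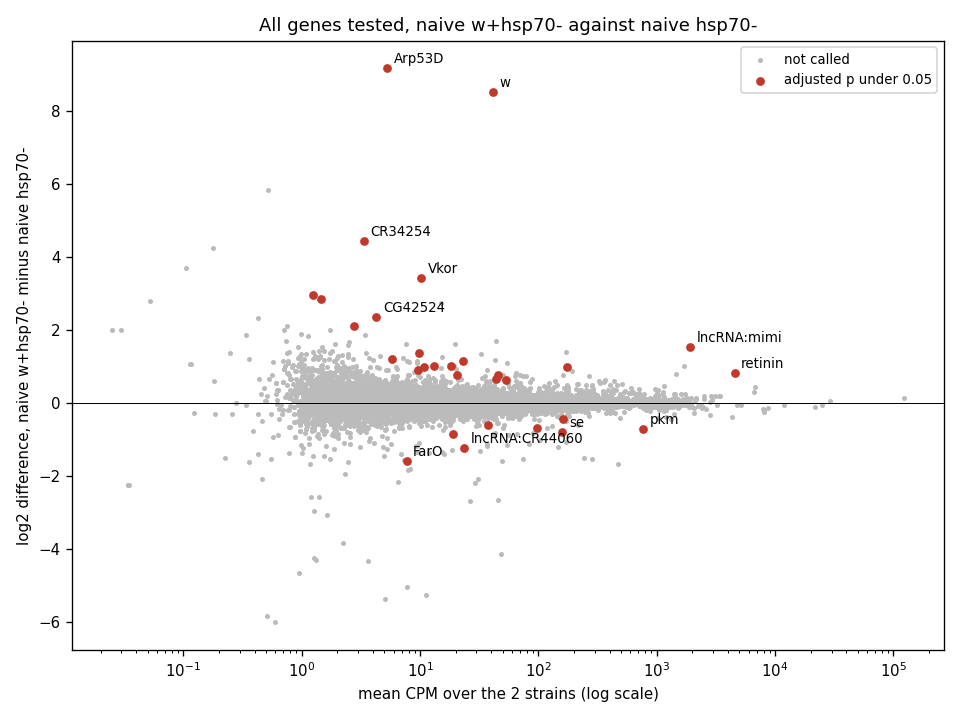
Log2 difference (naive w+hsp70- minus naive hsp70-) of every tested gene against its mean level in CPM over both strains, on a log axis. Red points are the 30 genes with an adjusted p under 0.05, of which 22 lie above 0 and 8 below. The position of Arp53D, with no reads in hsp70-, depends on the prior count of the fit.

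The largest change with reads in both strains was that of w itself (FBgn0003996, chromosome X, 2790599 to 2796466, minus strand, dm6). Its level was 97.8, 78.9 and 71.3 CPM in the w+hsp70- libraries and 0.406, 0 and 0.209 CPM in the hsp70- libraries. The strains were far apart, and the hsp70- values rest on 3 reads in all, against 1519 in w+hsp70-. The log2 difference was 8.53 (SE 0.26, edgeR adjusted p = 2.95e-13). As a ratio of reads per effective library size it was 405.0, with an exact 95% interval of 138.3 to 1966.2 for counting error only. The w reads thus matched the strain names. The other strains lay between, at 9.23 ± 0.53 CPM in hsp70-1c and 30.1 ± 1.2 CPM in hsp70-4c (SD, n = 4 each).

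No other tested gene near w passed. The gene body of kirre, on the opposite strand, encloses w, and its log2 difference was -0.32 (SE 0.16, edgeR adjusted p = 0.708). CG32795 and Syx4, the other tested genes within 50 kb, were at -0.10 and -0.04. Of 56 tested genes within 0.5 Mb of w none passed, and of 153 within 1 Mb 1 did (0.654%), FarO, at 586.7 kb. On the X chromosome as a whole 5 of 1645 tested genes passed (0.304%), w higher and pkm, Nep1, FarO and CG40485 lower in w+hsp70-. The other arms had 7 of 1825 on 2L, 6 of 2122 on 2R, 6 of 2010 on 3L and 6 of 2555 on 3R, so that the calls were spread over the large arms. All 12 calls on 2R and 3R were higher in w+hsp70-.

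A neighbouring pair of genes on 2R had reads in w+hsp70- and few or none in hsp70-. Arp53D, which encodes an actin-related protein, had 11.8, 7.92 and 12 CPM in w+hsp70- and no read in any hsp70- library. That makes it at least 51.5-fold higher in w+hsp70-, against a floor of 3 counts over the group (edgeR adjusted p = 4.52e-05). Vkor, which encodes vitamin K epoxide reductase, had 18.4, 12.4 and 25.3 CPM against 2.64, 0.822 and 1.67 CPM, a log2 difference of 3.44 (SE 0.39, edgeR adjusted p = 4.38e-04). Arp53D lies at 16774246 to 16775676 and Vkor at 16778365 to 16778994 on the same strand, with 2689 bp between them. The flanking genes did not pass: Sod2, the mitochondrial superoxide dismutase, at 0.09, unc-104, a kinesin, at -0.13, and RalGPS at -0.07. Resilin, the nearest tested gene downstream, was at 0.91 (edgeR adjusted p = 0.805) from levels under 2 CPM.

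**Figure D2:**
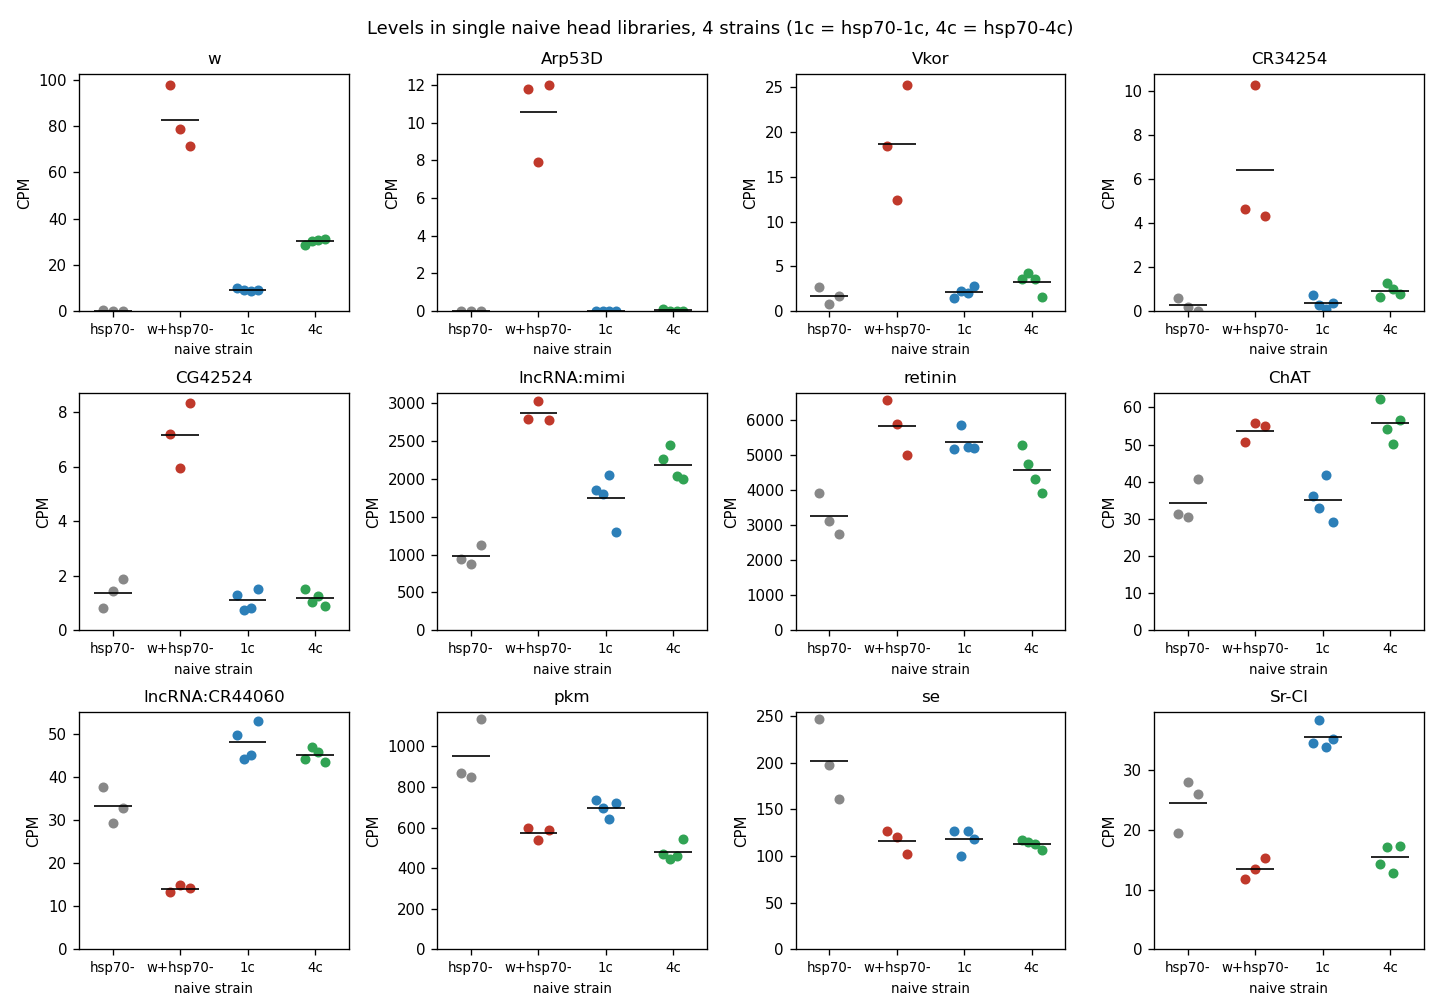
Level in CPM of 12 called genes in each naive library of hsp70- (n = 3), w+hsp70- (n = 3), hsp70-1c (n = 4) and hsp70-4c (n = 4). Points are single libraries and black lines are group means. For Arp53D, Vkor, CR34254 and CG42524 only the w+hsp70- libraries lie high, whereas for lncRNA:mimi and se the hsp70- libraries lie apart from the rest. For retinin they lie below those of w+hsp70- and hsp70-1c, and the highest of them, at 3920.1 CPM, is level with the lowest of hsp70-4c, at 3904.8 CPM.

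CG42524 and the pseudogene CR34254 showed the same arrangement elsewhere in the genome. CG42524 (2R, 15613854 to 15657214) had 7.19, 5.94 and 8.33 CPM against 0.812, 1.44 and 1.88 CPM, a log2 difference of 2.37 (SE 0.32, edgeR adjusted p = 0.00122). CR34254 (3L, 18679559 to 18680779) had 4.64, 10.3 and 4.33 CPM against 0.609, 0.205 and 0 CPM (log2 difference 4.44, SE 0.62, edgeR adjusted p = 0.00195). Neither gene had an overlap between strains. As a pseudogene, CR34254 may share reads with a related gene, so its level is uncertain. Arp53D is known in flies for expression in the male germ line, and the 71 tabulated markers of testis and accessory gland summed to 53.7 to 93.3 CPM in w+hsp70- and 71.1 to 83.2 CPM in hsp70-, with 14 at 0 in all 6 libraries.

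Beyond w, the genes of eye pigment were mostly without a call. The partners of w in the transporter were at -0.08 for st and 0.08 for bw on the log2 scale, with 29.3 ± 5.12 against 30.9 ± 2.72 CPM and 36.2 ± 2.1 against 34.2 ± 5.14 CPM (SD, n = 3). Sepia (se; 3L, 8520552 to 8521489), an omega-class glutathione transferase that makes the precursor of the red drosopterins, was the only pteridine gene of 9 tested to pass. It had 127.3, 120.5 and 101.8 CPM in w+hsp70- and 246.8, 196.9 and 160.9 CPM in hsp70-, a fall of 0.79 on the log2 scale (SE 0.13, edgeR adjusted p = 0.0109). The strains did not overlap, but the adjusted p was 0.0702 without w+hsp70- replicate 3 and 0.0515 without hsp70- replicate 2. GstO2, which overlaps se on the opposite strand, was at -0.06, and its relatives GstO3 and GstO1 were at -0.35 and -0.21, none called. Dihydropterin deaminase (DhpD) was at 0.49 (edgeR adjusted p = 0.252), and ry, the xanthine dehydrogenase, at 0.16.

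None of 3 tested ommochrome genes passed. The peroxidase gene cardinal (cd) had 12, 11.7 and 13.7 CPM against 8.12, 8.63 and 6.05 CPM, without overlap, at a log2 difference of 0.71 (SE 0.19, edgeR adjusted p = 0.22). Vermilion (v), which encodes tryptophan dioxygenase, was at -0.11. Of 10 tested genes for the making of pigment granules none passed, with a median of -0.04.

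The photoreceptor genes gave no call. None of 7 opsin genes passed, with a median log2 difference of -0.11 and a range of -0.36 to 0.06, and none of 27 tested phototransduction genes, with a median of 0.04 and a range of -0.32 to 0.61. At an unadjusted p under 0.05 there were 2 of the 7 opsin genes and 4 of the 27 phototransduction genes, against 7.09% of all tested genes. Of 4 lens genes 1 passed. Retinin (3L, 16331933 to 16332789), a major protein of the corneal lens, had 6585.6, 5887.0 and 4993.3 CPM against 3920.1, 3125.6 and 2752.2 CPM, higher by 0.83 on the log2 scale in w+hsp70- (SE 0.13, edgeR adjusted p = 0.00793). Its adjusted p was 0.0526 without w+hsp70- replicate 1, 0.0566 without hsp70- replicate 2 and 0.0539 without hsp70- replicate 3.

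The other 3 tested lens genes did not pass. Crystallin (Crys) had 34.3, 68.8 and 37.2 CPM against 23.7, 22.2 and 8.77 CPM, at 1.35 (SE 0.44, edgeR adjusted p = 0.521). Cpr72Ec was at 0.64, and Cpr66D, at 2.68 ± 1.52 against 7.26 ± 3.12 CPM (SD, n = 3), at -1.45 (edgeR adjusted p = 0.144). The lens genes differed among themselves, with retinin, Crys and Cpr72Ec above 0 and Cpr66D below. Cpr66D passed in 3 alternatives: with all 32 libraries in the fit, with the DESeq2 Wald test and without w+hsp70- replicate 2 (adjusted p of 0.0449, 0.0445 and 0.0482).

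**Figure D3:**
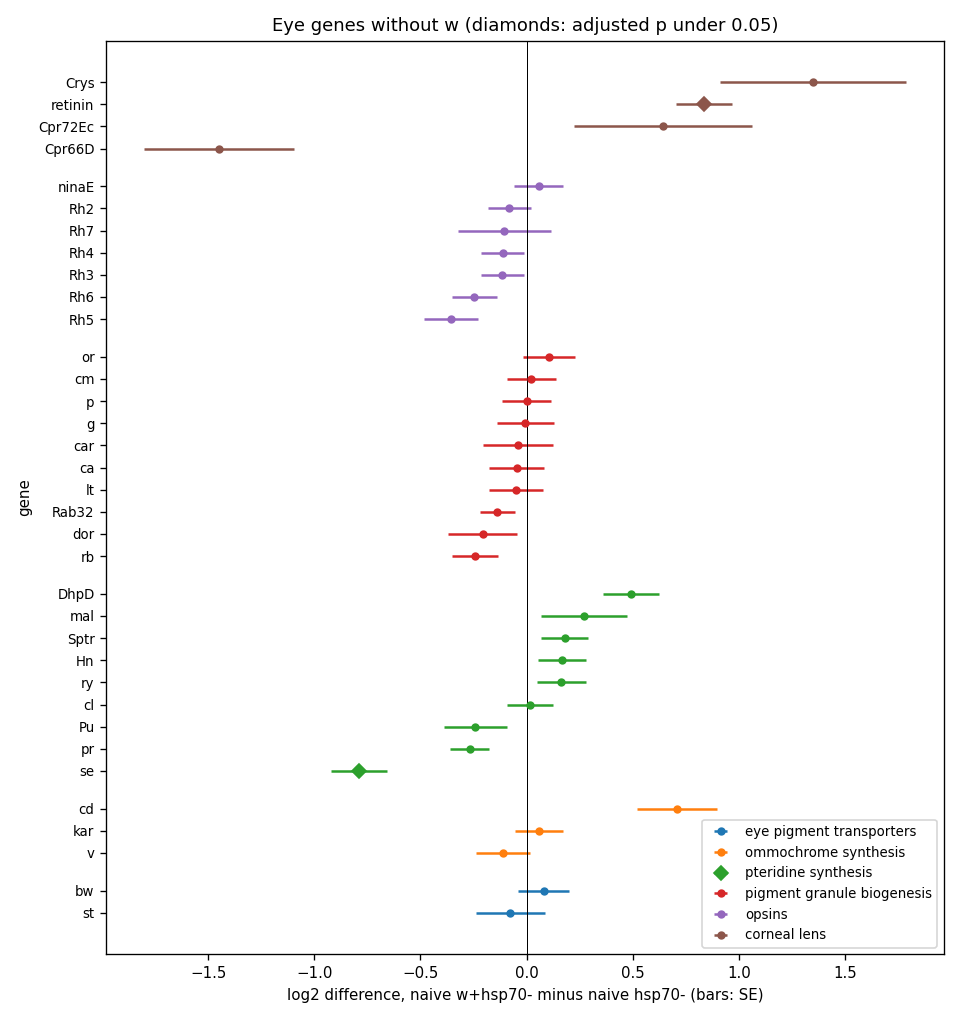
Log2 difference (naive w+hsp70- minus naive hsp70-) of the tested genes of 6 eye gene lists, w left out, with bars of 1 SE from the edgeR fit. Diamonds mark adjusted p under 0.05, which were se, below 0, and retinin, above 0, while the opsins and granule genes lie near 0.

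Among the non-coding RNAs, a pair had the smallest p after w. The long non-coding RNA lncRNA:mimi (3R, 23983503 to 23985065) had 2789.9, 3030.5 and 2780.1 CPM in w+hsp70- and 938.4, 881.4 and 1129.0 CPM in hsp70- (log2 difference 1.54, SE 0.14, edgeR adjusted p = 1.21e-05). lncRNA:CR44060 (2L, 850702 to 851163) went the other way, with 13.3, 14.9 and 14.2 CPM against 37.6, 29.4 and 32.8 CPM (log2 difference -1.23, SE 0.11, edgeR adjusted p = 1.21e-05). Both had narrow groups that lay well apart. lncRNA:CR44060 overlaps drongo on the opposite strand, and drongo was at 0.06. The other called non-coding RNAs, lncRNA:CR45109, lncRNA:CR44825, asRNA:CR44850, asRNA:CR45969 and asRNA:CR44321, were all higher in w+hsp70-, by 0.77 to 2.95 on the log2 scale. None of these 5 passed without w+hsp70- replicate 1, other than asRNA:CR45969, and lncRNA:CR45109 alone of them passed without hsp70- replicate 2 or 3. Of the 30 called genes 17 overlap an annotated gene on the opposite strand. The same share over all tested genes is not given here, so it is not known whether 17 is unusual. The libraries were made with a directional kit, but the strand setting of the counting is not given in the sources used here, so reads of overlapping genes may not have been told apart.

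The genes lower in w+hsp70- included enzymes and a receptor. pkm (X, 11581957 to 11584175) had 599.3, 537.6 and 587.7 CPM against 867.2, 847.9 and 1134.0 CPM, a fall of 0.72 (SE 0.11, edgeR adjusted p = 0.00528). FarO, a fatty acyl-CoA reductase, had 4.19, 3.78 and 3.5 CPM against 8.73, 10.1 and 15.9 CPM (log2 difference -1.59, SE 0.29, edgeR adjusted p = 0.0177). Nep1, a neprilysin-type peptidase, fell by 0.61 (SE 0.10, edgeR adjusted p = 0.011), and its adjusted p was 0.0669 to 0.0725 without w+hsp70- replicate 2 or 3 or hsp70- replicate 3. The hsp70- libraries were the higher ones for all 3 genes, and FarO kept its call in only 1 of the 6 fits that left out a library, that without hsp70- replicate 1. Sr-CI (2L, 4121702 to 4124153), a scavenger receptor of haemocytes that binds bacteria, had 11.7, 13.5 and 15.2 CPM against 19.5, 27.9 and 25.9 CPM (log2 difference -0.86, SE 0.15, edgeR adjusted p = 0.0122). Its adjusted p rose to between 0.0681 and 0.125 without w+hsp70- replicate 1 or 2 or hsp70- replicate 2 or 3. Of 8 tested haemocyte markers, Sr-CI alone passed. Hemolectin (Hml) was at 0.34 and PPO2, a prophenoloxidase, at 0.57, and the markers summed to 656.6 to 724.2 CPM in w+hsp70- and 595.8 to 759.4 CPM in hsp70-, with none at 0.

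Of the genes higher in w+hsp70-, CG11426, of the lipid phosphate phosphatase family, had 271.3, 217.4 and 202.7 CPM against 105.1, 134.8 and 111.2 CPM (log2 difference 0.98, SE 0.15, edgeR adjusted p = 0.00528). Its call was lost without hsp70- replicate 3, at an adjusted p of 0.0613. CG14742 had 23.5, 21.8 and 27.3 CPM against 14.2, 14.2 and 7.72 CPM (log2 difference 1.01, SE 0.16, edgeR adjusted p = 0.00936). The strains did not overlap in either gene, and CG14742 passed whichever library was left out.

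ChAT, the choline acetyltransferase that makes the transmitter acetylcholine, had 50.6, 55.8 and 55.0 CPM against 31.3, 30.6 and 40.7 CPM (log2 difference 0.65, SE 0.13, edgeR adjusted p = 0.0468). It lay close to the threshold: its adjusted p was 0.092 to 0.274 in 5 of the 6 fits that left out a library, and it passed in the fit without hsp70- replicate 3, at 0.0185. None of the 5 tested neuron markers passed. AANATL2, an arylalkylamine N-acetyltransferase-like gene, was at 1.01 (edgeR adjusted p = 0.0195) and Loxl2, a lysyl oxidase, at 0.64 (edgeR adjusted p = 0.0195). Both kept the call only without w+hsp70- replicate 3 or hsp70- replicate 1.

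Genes of behaviour and of the brain gave no call within the lists. None passed of 16 tested genes for making or moving biogenic amines (median log2 difference 0.08), of 16 amine receptors (0.02), of 22 courtship and sex determination genes (0.05), of 12 memory and cAMP pathway genes (-0.11) or of 15 activity-regulated genes (-0.02). In these 5 lists, in the same order, 1, 2, 4, 1 and 2 genes were under an unadjusted p of 0.05, against 7.09% of all tested genes. The activity-regulated receptor gene Hr38 was at 0.90 (SE 0.30, edgeR adjusted p = 0.456). The clock genes summed to 693.1 to 931.7 CPM in w+hsp70- and 932.9 to 1295.1 CPM in hsp70-, while none of 12 passed. Timeless (tim) had 131.3, 62.7 and 137.8 CPM against 180.7, 169.5 and 352.1 CPM (log2 difference -1.08, SE 0.67, edgeR adjusted p = 0.831). Its partner period (per) had 38.2, 23.8 and 30.3 CPM against 55.2, 46.9 and 62.6 CPM (log2 difference -0.83, edgeR adjusted p = 0.79). At 5 h the order of tim was turned, with 290.7, 235.2 and 287.6 CPM against 165.4, 181.9 and 166.9 CPM, also without a call. These genes cycle over the day, and the part of collection time in the calls was not tested.

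No gene passed in the remaining lists. This held for 21 other chaperones and co-chaperones, whose log2 differences ran from -0.27 to 0.34 with a median of 0.01. It held too for 32 odorant-binding protein genes (median 0.10), 56 chemoreceptor genes (0.24), 76 cytochrome P450 genes (0), 32 genes named as glutathione transferases (-0.05), 28 UDP-glycosyltransferase genes (0.12), 22 genes of the mitochondrial genome (-0.07) and 80 cytoplasmic ribosomal protein genes (-0.01). At an unadjusted p under 0.05 were 1 of the 21 chaperone genes and, in the order just given, 7, 10, 6, 5, 3, 3 and 5 genes. Over all tested genes the share was 7.09%. The chemoreceptor genes, which encode taste and smell receptors, summed to 350.2 to 411.1 CPM in w+hsp70- and 311.0 to 337.4 CPM in hsp70-, without overlap. This was not particular to them, as sums of the UDP-glycosyltransferase, clock, pigment granule and glia marker lists did not overlap either. Among 26 antimicrobial peptide genes (median 0.17, with 19 above 0 and 7 below) none passed. BomS6, a bomanin, had 327.4, 341.3 and 327.9 CPM against 255.2, 194.8 and 152.8 CPM (log2 difference 0.73, SE 0.16, edgeR adjusted p = 0.0912). AttA, an attacin, had 4.04, 3.24 and 4.0 CPM against 13, 7.6 and 9.6 CPM (log2 difference -1.41, SE 0.69, edgeR adjusted p = 0.742), so both genes were apart in every library, in opposite directions, and neither was called. At 5 h the bomanin genes BomS2 and BomT3 passed, higher by 0.67 and 0.55 in w+hsp70- (edgeR adjusted p = 0.0387 and 0.0489), and no other of 27 tested members did. Of 4 tested Turandot stress genes none passed.

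The levels in the other naive strains were set beside those of the compared pair. On the log2(CPM + 0.1) scale, both hsp70-1c and hsp70-4c were nearer to w+hsp70- than to hsp70- in 20 of the 30 called genes, against 45.5% of all tested genes. Retinin, at 5359.6 ± 331.4 CPM in hsp70-1c and 4566.5 ± 589.5 CPM in hsp70-4c, and se, at 118.2 ± 12.5 and 112.6 ± 4.62 CPM (SD, n = 4 each), were among them. In 5 genes both were nearer to hsp70-, against 25.4% of all tested genes: Arp53D, Vkor, CG42524, CR34254 and lncRNA:CR44060. Arp53D was at 0 CPM in hsp70-1c and 0.0317 ± 0.0634 CPM in hsp70-4c, and Vkor at 2.13 ± 0.587 and 3.25 ± 1.18 CPM. The other 5, Loxl2, tfc, CG11413, Sr-CI and ChAT, were split. Sr-CI was at 35.4 ± 1.98 CPM in hsp70-1c and 15.3 ± 2.22 CPM in hsp70-4c, and ChAT at 35.1 ± 5.38 and 55.9 ± 5.01 CPM. The libraries of hsp70-1c and hsp70-4c also entered the estimate of the spread.

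The same strains in trained flies at 5 h gave a set of libraries that shares none with the naive ones. There 28 of 10521 tested genes passed (0.266%), 20 higher (0.19%) and 8 lower (0.076%) in w+hsp70-. Of the 30 genes called in naive flies 11 passed again, which is 36.7% of the naive calls and 39.3% of the calls at 5 h, and all 11 had the same direction: w, Arp53D, Vkor, CG42524, CR34254, CG18641, lncRNA:mimi, CG14742 and retinin higher, and pkm and Sr-CI lower. Direction was kept in 28 of the 30, against 58.3% of the 10358 genes tested at both times. The libraries of the strains did not overlap at 5 h in 22 of the 30, against 13.4% of all tested genes. The count at 5 h also turned on single libraries, with 7 genes without w+hsp70- replicate 1, 10 without w+hsp70- replicate 2 or 3 and 12 without hsp70- replicate 1.

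**Figure D4:**
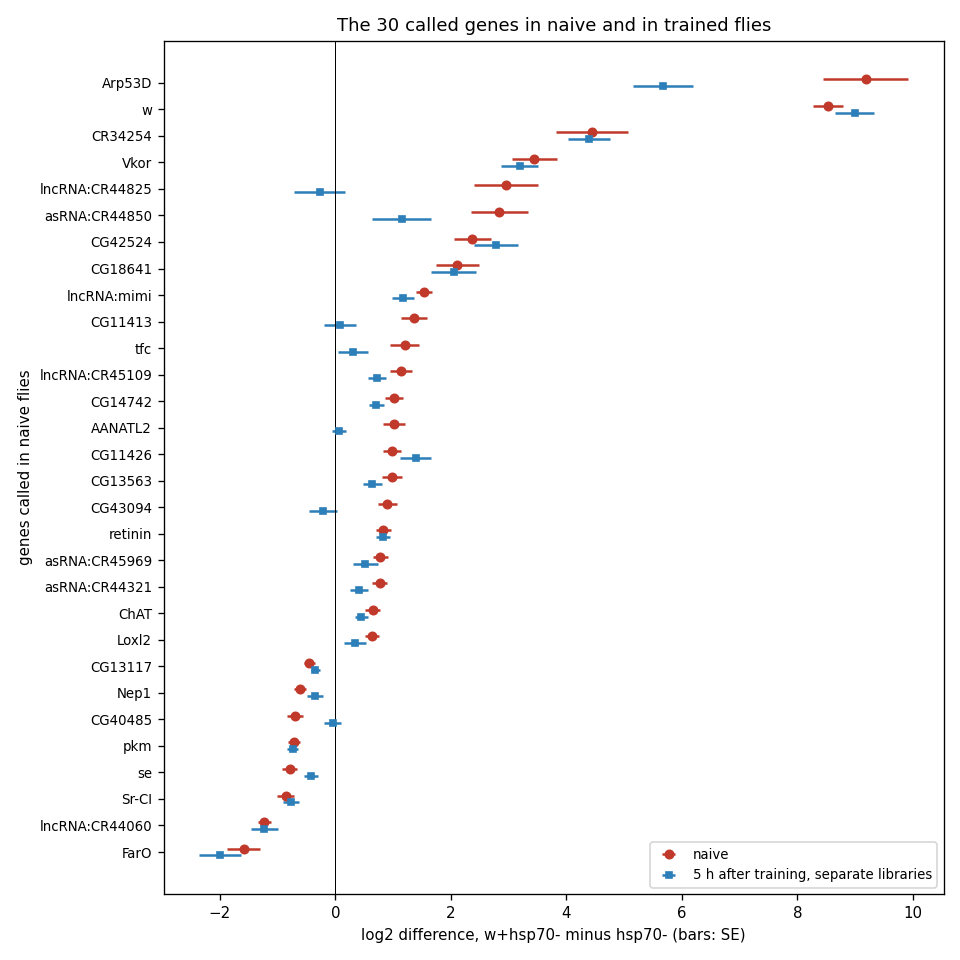
Log2 difference (w+hsp70- minus hsp70-) of the 30 genes called in naive flies, in naive libraries (circles) and in separate libraries at 5 h after training (squares), with bars of 1 SE. Direction was the same in 28 of the 30, and the squares of AANATL2, CG11413 and CG40485 lie near 0. The naive value of Arp53D depends on the prior count of the fit.

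Called differences of retinin, pkm and CR34254 had nearly the same size at both times. Retinin had 5028.0, 4738.7 and 3992.8 CPM against 2455.9, 2601.3 and 2701.5 CPM at 5 h, a log2 difference of 0.83 as in naive flies (SE 0.12, edgeR adjusted p = 0.00666). pkm was at -0.74 (edgeR adjusted p = 0.0055) and CR34254 at 4.39 (edgeR adjusted p = 1.16e-05). Arp53D had 9.4, 7.29 and 6.61 CPM against 0.124, 0.261 and 0 CPM, a log2 difference of 5.67 (SE 0.52, edgeR adjusted p = 1.26e-04). With no reads in naive hsp70-, its size at the other time is known only as a lower bound, and its interaction did not pass (edgeR adjusted p = 1). The strains lay apart in each of these 4 genes at 5 h as well. Cpr66D, with no call in naive flies, passed at 5 h, lower by 1.60 in w+hsp70- (SE 0.27, edgeR adjusted p = 0.0196), and Crys had 44.1, 30.7 and 41.0 CPM against 7.43, 8.23 and 8.51 CPM, at 2.26 (SE 0.52, edgeR adjusted p = 0.241). The fall of se was not called at 5 h, at -0.43 (SE 0.12, edgeR adjusted p = 0.262), though 97.2, 119.8 and 121.6 CPM against 141.0, 168.8 and 145.1 CPM did not overlap.

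Other calls of the naive flies were not met again. AANATL2 was at 0.06 at 5 h, CG11413 at 0.08 and CG40485 at -0.05, from 1.01, 1.36 and -0.70 in naive flies. lncRNA:CR44825, at 2.95 in naive flies, was at -0.27, and CG43094, at 0.90, was at -0.21. A test of the change itself, the interaction of strain and time over all 32 libraries, found 0 of 10843 genes at an edgeR adjusted p under 0.05 and 375 at an unadjusted p under 0.05. No other tool was run on it. For lncRNA:CR44825 the interaction was -3.22 (edgeR adjusted p = 0.318). None of these strain differences was therefore shown to change between naive and trained flies.

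Of the 30 genes, 6 passed in all 12 alternative settings: w, Arp53D, Vkor, CG42524, lncRNA:mimi and lncRNA:CR44060. CR34254, pkm and CG14742 joined them in passing whichever of the 6 libraries was left out. A further 18 passed in some of those 6 fits, and CG40485, tfc and CG13117 in none.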

How the data were processed

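Per the labels' protocols, male head RNA went into directional libraries, read from a single end over 75 bp. Per the submitters' processing notes the authors used Trimmomatic, STAR 2.5.0a, featureCounts 1.5.0-p1 and build dm6. The strand setting and annotation release are not given in the sources used here. The deposited values are raw counts of reads per gene, 17559 genes per library, of which 17253 had a symbol in the reference table; 12 rows of read-status totals were left out. Positions come from the Ensembl BDGP6 annotation, in dm6 coordinates.

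Groups follow the sample titles, except for naive hsp70-4c. The titles of its libraries read 5h-control, and they were used as naive because their time label is 0 h. The 14 naive libraries of 4 strains were fitted together (edgeR 4.0.16, R 4.3.3; scaling by TMM, filterByExpr, group means, robust quasi-likelihood test, two-sided, Benjamini-Hochberg adjustment over all tested genes, called at an adjusted p under 0.05), and so were the 12 libraries at 5 h. The interaction used all 32 libraries. CPM use TMM effective library sizes. An exact permutation test of the Hsp70 sum (SciPy 1.17.1) was void, since 1 read in 6 libraries gives the same p under any arrangement. P-values measure the spread between pools of flies, and intervals and floors of 3 counts cover counting error only.

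The compared groups, gene lists and naming rule were chosen with earlier results of these data known. Named were up to 24 called genes in each direction, all members of the Hsp70, pigment and lens lists, up to 4 genes of each other list by p, tested genes within 50 kb of w, and up to 6 genes in each direction that were not called but did not overlap; the text gives a part, with neighbours of called genes. Alternatives were DESeq2 1.42.0 size factors and Wald test, no filter, other sets of libraries, a replicate block and leaving out each library. The edgeR test was tested on simulated counts. Listed genes not matched in the tables were not used here.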

Additional observations from a re-analysis of the deposited data

How the results depend on the processing

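The count of 30 genes (22 higher, 8 lower in w+hsp70-) depended on the libraries in the fit and on the tool. It was 7 (6 higher, 1 lower) with the 6 libraries alone and 48 (36 higher) with the DESeq2 Wald test, 30 of them the same genes. Leaving out each library gave 12 to 52 genes, 9 to 45 higher and 3 to 7 lower, and the count at 5 h was 7 to 23, an alternative chosen after seeing the data. The cause was not tested. The count was 27 with DESeq2 size factors, 35 without a filter and 37 with all 32 libraries. Same-numbered deviations correlated at 0.185, -0.011 and 0.174, and differently numbered ones at -0.296 to 0.163. Replicates 1 and 3 of each strain correlated best with their own number, and replicate 2 of each did not. So few values cannot decide whether replicate numbers pair the samples. With the number as a replicate block 24 genes passed, all among the 30. The log2 difference of w stayed between 7.99 and 9.41 and past the threshold in all 12 alternatives. The difference of the Hsp70 sum was 0 to 0.119 without single libraries. Of 347 values of the other called genes, 231 stayed past the threshold and 116 did not, and none turned direction. At 4542145 to 6804979 reads a library and 3 libraries a group, changes could be missed, and not only small ones of low genes. In simulated counts, 100 genes drawn regardless of level were changed 2-fold and 100 were changed 1.5-fold. Of those still tested after the filter on low counts, the edgeR test recovered 76.8% and 37.4%.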

Other observations

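Without hsp70- replicate 1, 28 further genes passed. All were higher in w+hsp70- except Mal-B1, at a log2 difference of -1.02 (edgeR adjusted p = 0.0429). The pteridine enzyme gene DhpD was among the 28 at a log2 difference of 0.64 (edgeR adjusted p = 0.0345). So were the immune peptide gene BomS6 at 0.93 (edgeR adjusted p = 0.00386) and the ribosomal protein gene RpL39 at 0.58 (edgeR adjusted p = 0.00727). The neuron markers and mitochondrial genes of that library lay apart from those of the other libraries compared, and the part of this in the calls was not tested.

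Nplp3, at 13.2 kb from retinin on the same strand, was at a log2 difference of 1.02 in naive flies (SE 0.20, edgeR adjusted p = 0.0695), and it passed at 5 h, at 0.89 (SE 0.16, edgeR adjusted p = 0.0407). CG16826 and whe were near 0 in a single library: CG16826 had 349.6, 322.4 and 0.833 CPM in w+hsp70- against 599.8, 428.3 and 1106.3 CPM in hsp70-, and whe had 249.4, 191.8 and 0.333 CPM against 403.9, 262.2 and 608.5 CPM. The low value of both was that of w+hsp70- replicate 3. Neither gene was called.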
